A study of Mus musculus with 59 samples.

Results

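The nuclear genes for subunits of the mitochondrial respiratory chain were followed across all groups of a mouse liver study of diet, arsenite and dexamethasone. Members were the genes whose only symbol in the platform annotation begins with Ndufa, Ndufb, Ndufc, Ndufs or Ndufv and a digit, is Sdha, Sdhb, Sdhc or Sdhd, or begins with Uqcr, with Cox and a digit from 4 to 8, or with Atp5. Each gene was represented by its probe set of highest mean over 59 arrays. This gave 81 of the 18193 genes with a single symbol, measured by 164 probe sets, and 48 of them had more than 1 probe set. By textbook assignment 33 belong to complex I, 4 to complex II, 8 to complex III, 19 to complex IV (with Ndufa4 and its relative Ndufa4l2) and 17 to complex V. A further 9 probe sets carry such a symbol together with others and were not used.

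The respiratory chain sits in the inner mitochondrial membrane. Complex I oxidises NADH and complex II succinate, complex III passes the electrons to cytochrome c, and complex IV (cytochrome c oxidase) hands them to oxygen, while complexes I, III and IV pump protons. Complex V (ATP synthase) uses the proton gradient to make ATP. Hepatocytes are rich in mitochondria, which supply ATP for the synthesis of glucose and urea. Several subunits of complex IV exist as a form of most tissues, liver included, and a form of skeletal and heart muscle.

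Liver RNA of male C57BL/6 mice was hybridised to 1-colour Affymetrix arrays, 1 array per sample. The mice were 6 weeks old and had 2 weeks to get used to their diet, which was either LRD-5001, a standard chow, or AIN-76A, made of purified ingredients. On each diet the groups had sodium arsenite for 5 weeks at 10 ppb in water, 100 ppb in water or 10 ppb in food, or none (controls). In a separate experiment all mice ate AIN-76A, and the livers were collected at 8 hours from mice injected into the peritoneum with dexamethasone (1 mg/kg) and sodium arsenite (1 mg/kg), dexamethasone alone, arsenite alone, or saline. Dexamethasone is a synthetic glucocorticoid. Each of the 12 groups had 5 arrays, except 4 in AIN-76A mice given 100 ppb in water, and the samples are labelled as biological replicates. The values are log2 expression values per probe set, and differences are given on that scale as the group named first minus the other, with their standard error (SE). Called means an adjusted p under 0.05 in limma after Benjamini-Hochberg adjustment over all 45037 probe sets tested.

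The array medians lay between 2.42 and 2.59, and the hepatocyte marker Alb (albumin) averaged 13.7. In each group the array with the lowest score on the leading component of the spread within groups was taken as standing apart. The choice fixed 1 array per group, and these 12 had the lowest scores of all arrays. In saline the score was -14.1 for the chosen replicate F and -7.97 for replicate A. The chosen array's upper quartile was below the mean of the others of its group in 12 of 12 groups. Score and upper quartile come from the same values, so this is a description and not a test. Over the members, the array standing apart was lower in 5 groups and higher in 7, by 0.017 ± 0.107 on average (mean ± SD over 12 groups). The AIN-76A array labelled 10 ppb in food, replicate D, also held transcripts of muscle and fat, given below. Without it the diet averages called the same members (Ndufa8 -0.39, Ndufb3 0.29, Ndufv1 0.15 and Atp5pb 0.18). In tissue RNA, fewer cells of a type and less RNA per cell cannot be told apart.

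The promoters below are shown because their genes were the members called between the diets averaged over exposures. Each window holds 150 bases before the annotated start and 30 bases from it on, read 5′ to 3′ on the gene's strand from RefSeq on GRCm38.p6. The windows are chr2:36049309-36049488 for Ndufa8 (minus strand), chr1:58586247-58586426 for Ndufb3 (plus strand), chr19:4012726-4012905 for Ndufv1 (minus strand) and chr3:105959234-105959413 for Atp5pb (minus strand). Capitals mark a match to the core of the NRF1 site (TGCGCATG) or to a YY1 site (AAGATGGC) on either strand.
Ndufa8: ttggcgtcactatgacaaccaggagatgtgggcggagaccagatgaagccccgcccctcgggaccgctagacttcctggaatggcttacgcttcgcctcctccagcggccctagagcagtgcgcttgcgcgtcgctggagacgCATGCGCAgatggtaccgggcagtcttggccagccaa
Ndufb3: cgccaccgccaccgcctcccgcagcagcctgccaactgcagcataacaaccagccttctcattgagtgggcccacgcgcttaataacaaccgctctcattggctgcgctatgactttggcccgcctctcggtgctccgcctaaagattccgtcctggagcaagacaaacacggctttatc
Ndufv1: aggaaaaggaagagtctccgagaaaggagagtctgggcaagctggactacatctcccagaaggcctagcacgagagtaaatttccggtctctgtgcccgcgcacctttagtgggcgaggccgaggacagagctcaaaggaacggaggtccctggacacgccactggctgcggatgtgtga
Atp5pb: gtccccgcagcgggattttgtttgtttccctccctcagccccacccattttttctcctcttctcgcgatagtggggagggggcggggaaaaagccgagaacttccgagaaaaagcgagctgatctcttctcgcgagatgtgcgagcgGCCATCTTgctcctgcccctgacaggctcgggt

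NRF1, GABP, the estrogen-related receptors (ERR) and YY1 are known regulators of respiratory chain genes. Their sites were searched as TGCGCATG, CCGGAAGT, TCAAGGTCA and AAGATGGC on both strands of the RefSeq windows that run from 250 bases before each annotated start to 50 after it. Of the 81 members, 66 had a window. The entries not found were Ndufa2, Ndufb9, Ndufs1, Sdhc, Uqcrb, Uqcrc2, Uqcrq, Cox4i1, Cox4i2, Cox6a2, Cox6c, Cox8c, Ndufa4l2, Atp5a1 and Atp5mpl. The NRF1 core was present in 8 of 66 members (12.1%), against 2.42% of 27025 genes with a window. The GABP site was present in 5 (7.58%, against 4.31% of genes), the ERR site in 2 (3.03%, against 0.466%) and the YY1 site in 9 (13.6%, against 3.19%). At least 1 of the 4 was found in 23 of 66 members (34.8%), against 9.81% of genes, and no matches of different motifs overlapped in a member. Among the members called by diet, Ndufa8 held the NRF1 core and Atp5pb the YY1 site, whereas Ndufb3 and Ndufv1 held none of the 4. The Ndufa8 match began 7 bases before the start and the Atp5pb match 3 bases before it, and both ran onto the start. The NRF1 core was also found in Ndufa6, Ndufb6, Ndufb8, Uqcrc1, Cox5b, Atp5g2 and Atp5l. These matches are of letters only, and no binding was measured.

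Most members were bright in liver and varied little. A mean above 6 was found for 70 of 81, from 8.29 to 12.5, and the other 11 averaged 1.88 to 5.03. Brightness also depends on the probes, so genes are not ranked by it. Among the brightest probe sets were those of Uqcrb, a subunit that binds ubiquinone in complex III (12.5), Cox6a1 (12.3), the c subunit gene Atp5g3 (11.7), Cox5b (11.7) and Cox7a2 (11.6). Over these 70 members the median range of the 12 group means was 0.298, against 0.560 for 1321 other genes with a mean above 8, and the median SD within groups was 0.171, against 0.260. The narrowest range was that of Cox6a1 (0.084). The widest were those of the complex I subunits Ndufa8 (0.673) and Ndufb3 (0.644) and of Sdhb, the iron-sulphur subunit of complex II (0.550). The mean over all 81 members lay between 9.10 and 9.28 in the 12 groups, and single arrays ran from 8.93 to 9.44. The highest group and the highest array were those of 10 ppb in food on AIN-76A and its replicate D, and without that replicate the group averaged 9.24 and the highest of 58 arrays was 9.38.

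**Figure D1:**
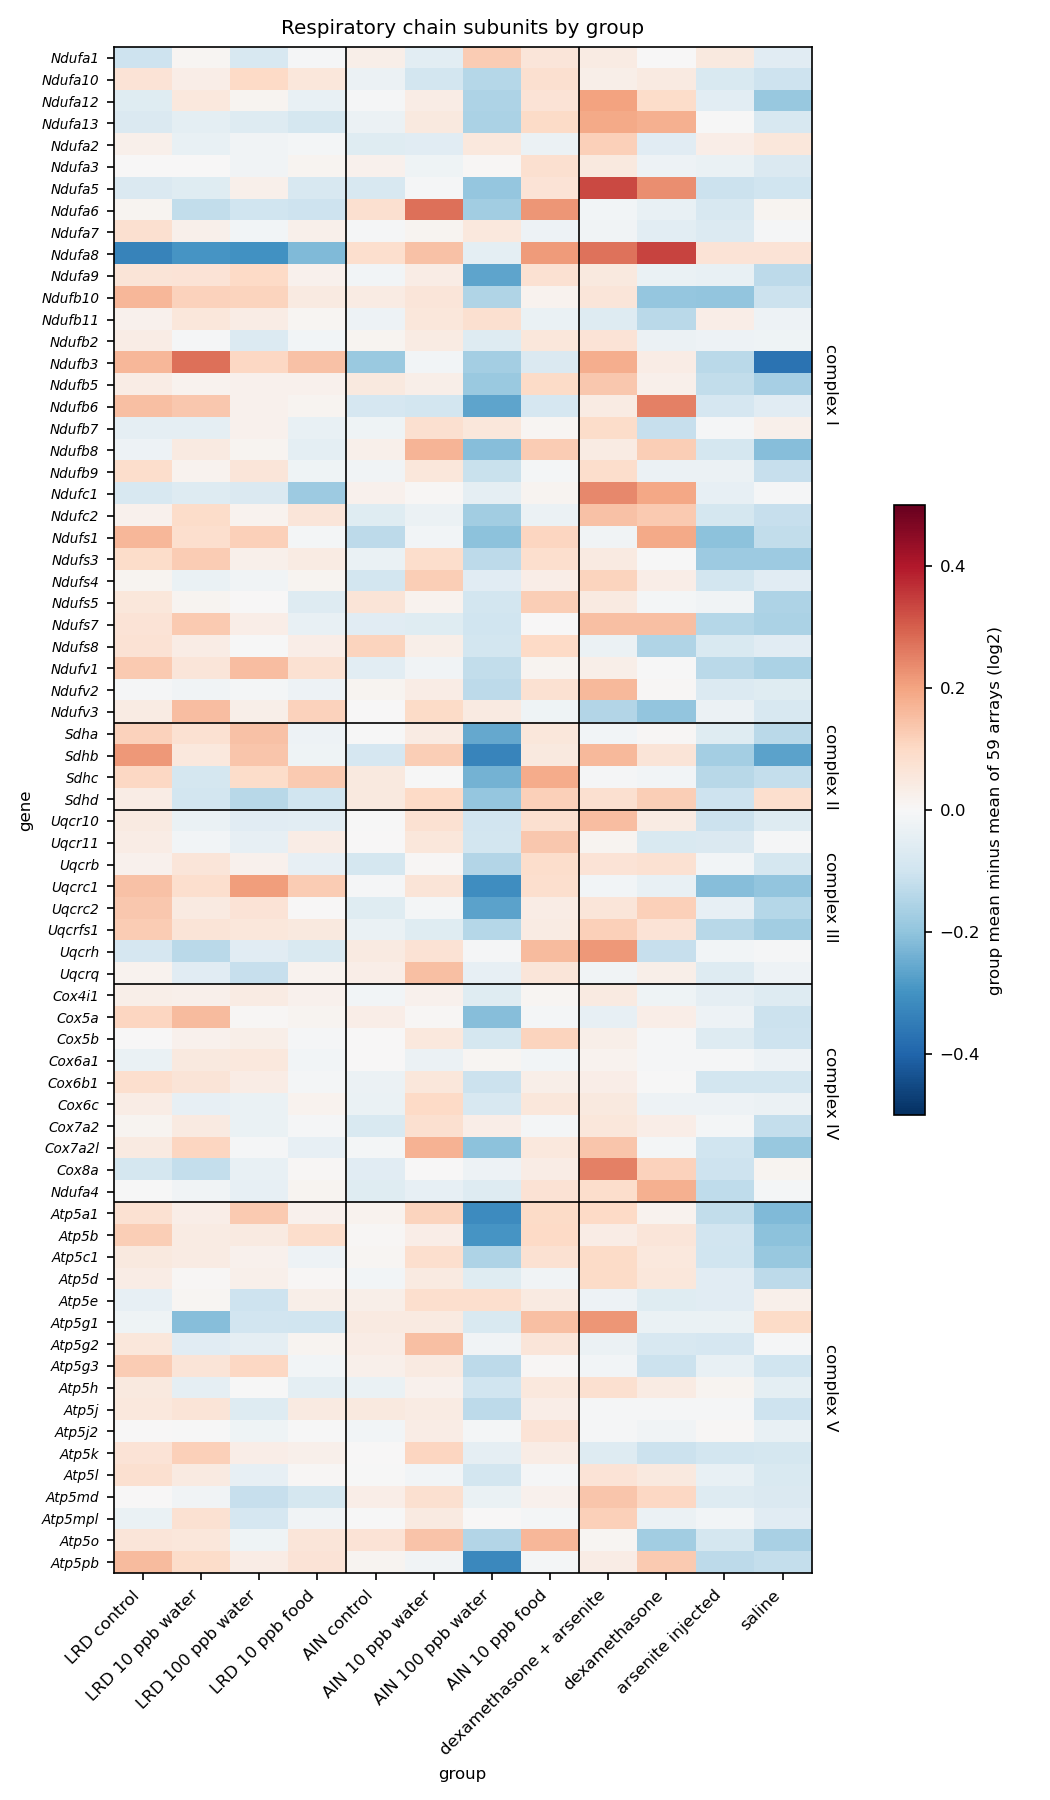
Group means of the 70 members with a mean above 6, each minus the gene's mean over 59 arrays (colour, log2 scale), with genes down the page by complex and the 12 groups across. The Ndufa8 row is blue in the 4 LRD-5001 groups, and the column of AIN-76A mice given 100 ppb in water is blue for most members, as is that of saline, although limma called no member in that exposure.

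Members varied together from array to array within groups. After each group's mean was taken off, the median correlation between pairs of the 70 bright members over 59 arrays was 0.332, against 0.058 between pairs of the other bright genes. It was 0.333 within complex I, 0.269 in complex II, 0.396 in complex III, 0.331 in complex IV and 0.363 in complex V. All pairs come from the same arrays and so share each array's RNA quality and scaling. These values are descriptions, and the share of scaling in them was not tested.

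Several isoforms of complex IV subunits could be read. The probe sets of the general forms Cox4i1, Cox6a1, Cox6b1, Cox7a2 and Cox8a averaged 11.4, 12.3, 11.6, 11.6 and 9.13, and that of Cox7a2l, a relative that takes part in supercomplex assembly, averaged 8.50. The probe sets of Cox4i2, known from lung, and of Cox6b2 and Cox7b2, known from testis, averaged 2.40, 2.68 and 1.88, within the range where most probe sets of the array lie. Cox8c, another testis form, averaged 5.03. The muscle forms Cox6a2, Cox7a1 and Cox8b averaged 4.05, 2.72 and 2.68. The probe sets of Cox7c, Ndufb4 and Ndufb1, genes of the general chain, also averaged only 2.27, 2.10 and 4.50, and nothing is read from these dim probe sets about the genes' abundance.

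A single array carried the muscle isoforms. Cox8b read 8.42 on the AIN-76A array labelled 10 ppb in food, replicate D, and between 2.13 and 3.12 on the other 58 arrays. Cox6a2 read 8.55 on it and between 3.63 and 4.48 on the others. Cox7a1 read 6.96 on it and between 1.96 and 4.88 on the others, the next highest being replicate E of the mice injected with both agents. No other array came near these values for Cox6a2 and Cox8b. In the same array 7 of 10 muscle markers lay above all 58 others, among them creatine kinase Ckm (10.2, against at most 3.73), skeletal actin Acta1 (11.7, against at most 3.33), troponin Tnnt3 (10.2, against at most 2.65) and the fast myosin Myh4 (8.70, against at most 2.56). Myh1, Myh6 and myoglobin Mb did not. Of 6 fat markers, Adipoq (7.24, against at most 2.51) and Retn (6.48, against at most 3.30) were above all others, and the brown fat gene Ucp1 read 1.98. Also above all others were 3 of 5 B cell markers, Ighm (10.6, against at most 9.78), Cd79b (3.55, against at most 3.46) and Ms4a1 (2.59), and 2 of 5 bile duct markers, Krt19 (3.71) and Cftr (2.16, against at most 2.13). Except for Ighm these readings were dim, so no B cells or bile duct cells are read from them. Of 10 stellate cell and fibroblast markers 1 was, Des (6.86, against at most 4.55), which muscle also expresses, and 0 of 9 hepatocyte and 0 of 11 Kupffer cell markers were. The summed linear signal of the 10 muscle markers was 6935 on it, and ran from 47.6 to 66.4 over the arrays of the other groups. The muscle carrier Slc25a4, the ADP/ATP exchanger of heart and muscle, read 9.31 on it, against at most 5.10. In all, 9 of 81 members were highest on this array, 3 of them by more than 1. Others led narrowly, such as Ndufs3 (9.95, against at most 9.93). The share of all genes that were highest on this array was not computed.

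**Figure D2:**
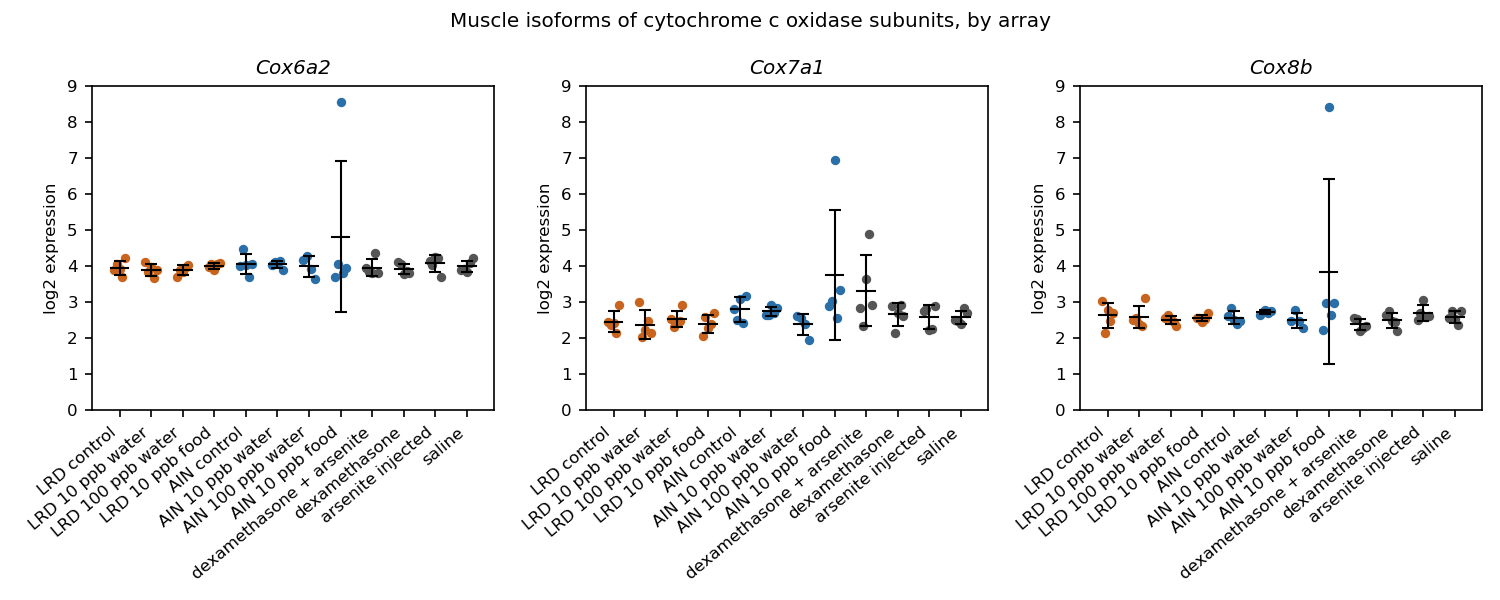
Log2 expression of the muscle forms Cox6a2, Cox7a1 and Cox8b on each of 59 arrays (points), with the group mean and SD (bars); the axis starts at 0. The AIN-76A array given 10 ppb in food, replicate D, stands alone at 8.55, 6.96 and 8.42.

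The diets differed in few subunits. Averaged over the 4 exposure levels (39 arrays), 3 members rose on LRD-5001 relative to AIN-76A (Ndufb3, Ndufv1 and Atp5pb), 1 fell (Ndufa8), and 77 did not pass. In limma 2.67% of all probe sets were called higher and 1.59% lower, so the members' shares (3 and 1 of 81) were close to those of all probe sets. Most probe sets are dim, however, while 70 of the members had a mean above 8. Among genes with a mean above 8, 16.6% were called higher and 9.13% lower, and the members' shares were below these. The median difference of the members was 0.01, against -0.01 for all genes. At an unadjusted p under 0.05 there were 18 members (22.2%), against 14.3% of all probe sets. The share of genes with a mean above 8 at that p was not computed.

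Ndufa8, an accessory subunit of complex I that faces the space between the mitochondrial membranes, was lower on LRD-5001. In controls its values were 9.85, 9.76, 9.89, 9.73 and 9.91 on LRD-5001, against 10.41, 10.04, 10.14, 10.19 and 10.46 on AIN-76A. At 10 ppb in water they were 9.67, 9.85, 9.96, 9.82 and 10.06 on LRD-5001, against 10.21, 10.33, 10.40, 10.23 and 10.38 on AIN-76A. At 10 ppb in food they were 9.84, 10.12, 9.95, 9.88 and 9.92 on LRD-5001, against 10.12, 10.47, 10.32, 10.46 and 10.52 on AIN-76A. In each of these 3 comparisons every LRD-5001 array lay below every AIN-76A array. At 100 ppb in water the arrays overlapped, with 10.03, 9.77, 9.76, 9.60 and 10.16 on LRD-5001, against 10.32, 9.91, 10.14 and 10.10 on AIN-76A. The mean difference over the 4 levels was -0.39 (SE 0.05, 95% interval ± 0.10, limma adjusted p = 1.53e-06). By level it was -0.42 in controls (SE 0.10, adjusted p = 0.0345), -0.44 at 10 ppb in water (SE 0.10, adjusted p = 0.0325) and -0.44 at 10 ppb in food (SE 0.10, adjusted p = 0.0383). At 100 ppb in water it was -0.25 (SE 0.11, adjusted p = 0.249).

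Ndufa8 was the only member called in these 3 levels, where limma called 0.169%, 0.171% and 0.169% of all probe sets lower (controls, 10 ppb in water and 10 ppb in food). Groups that do not overlap were found for 1.85%, 1.76% and 1.43% of all probe sets in the same order. Among the members this held for Ndufa8 at each of these levels. It also held for the dim Cox7b2 at 10 ppb in water (-0.28, limma adjusted p = 0.289). The calls at single levels were lost in most fits that left 1 array out. Among 10 such fits the Ndufa8 call was kept in 2 in controls (without AIN-76A replicate C or D). It was kept in 3 at 10 ppb in water (without AIN-76A replicate A or LRD-5001 replicate D or F). At 10 ppb in food it was kept in 2 (without AIN-76A replicate A or LRD-5001 replicate C). Over these fits its difference stayed between -0.50 and -0.36. Without replicate D of the AIN-76A food group, the array with muscle transcripts, the difference at 10 ppb in food was -0.45 and was not called. The average over levels was called in all 39 such fits. Only 1 probe set measures Ndufa8, so no other probe set checks it.

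Ndufb3, an accessory subunit in the membrane arm of complex I, was higher on LRD-5001. In controls it read 8.80, 8.99, 8.91, 8.59 and 8.90 on LRD-5001, against 8.80, 7.92, 8.66, 8.22 and 8.85 on AIN-76A, and the groups overlapped. The AIN-76A controls were the more scattered, 8.49 ± 0.40, against 8.84 ± 0.16 in LRD-5001 controls (SD, n = 5 each). The mean difference over the 4 levels was 0.28 (SE 0.08, limma adjusted p = 0.0322), and it was above 0 at each level. The call was kept in 29 of 39 fits that left 1 array out, the lowest difference being 0.25. It was lost without AIN-76A control E, food A, 10 ppb water A or 100 ppb water B, and without LRD-5001 control C, food E or F, 10 ppb water A, or 100 ppb water A or E.

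Ndufv1, the core subunit that binds NADH and flavin, and Atp5pb, subunit b of the stalk that holds ATP synthase still, were higher by less. Ndufv1 averaged 9.73 on LRD-5001 and 9.57 on AIN-76A, a difference of 0.15 (SE 0.04, limma adjusted p = 0.0223) whose call was lost without AIN-76A replicate B at 100 ppb in water. The 2 other probe sets of Ndufv1 differed by 0.13 (adjusted p = 0.25) and 0.09 (adjusted p = 0.466). Atp5pb averaged 10.48 on LRD-5001 and 10.31 on AIN-76A, a difference of 0.17 (SE 0.05, limma adjusted p = 0.0196). The other probe set of Atp5pb differed by 0.10 (adjusted p = 0.381). For both genes the groups overlapped in controls, and the difference was above 0 at each level.

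**Figure D3:**
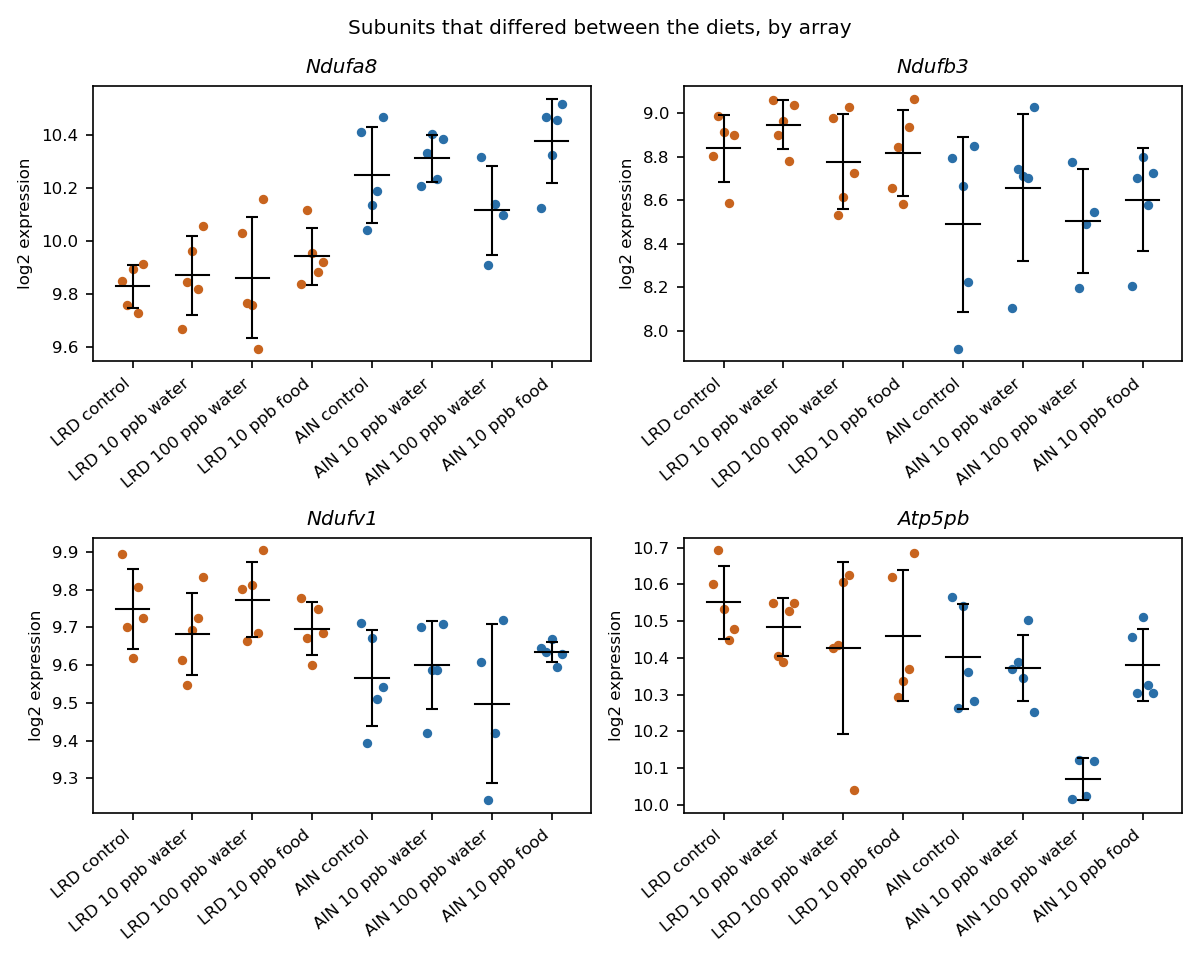
Log2 expression of the 4 members called between the diets, on each array of the 8 groups exposed for 5 weeks (points), with the group mean and SD (bars); the axes do not start at 0. Ndufa8 lies lower in the LRD-5001 groups on the left of its panel, and the other 3 differ by 0.15 to 0.28 with overlapping arrays.

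Across the 4 levels, which share no arrays, 14 of 81 members were higher on LRD-5001 at each level and 11 lower (17.3% and 13.6%), against 12.6% and 11.0% of all genes. The median difference over the 4 levels was 0.01 in complex I (33 members), 0.09 in complex II (4), 0.01 in complex III (8), -0.01 in complex IV (19) and 0.02 in complex V (17). Ndufa6, a matrix-side accessory subunit of complex I, differed by -0.18 (SE 0.06, limma adjusted p = 0.0764; called without AIN-76A control C, food A, 10 ppb water E or 100 ppb water B, or LRD-5001 control F or 10 ppb water F), and by -0.40 at 10 ppb in water (adjusted p = 0.17). Of the mitochondrially encoded subunits only ND5 of complex I could be named on the array, and it differed by 0.16 (SE 0.05, adjusted p = 0.0907).

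At 100 ppb in water the diets differed in 2 subunits of ATP synthase. Atp5a1, the catalytic-head subunit alpha, read 11.06, 11.10, 11.10, 10.97 and 11.19 on LRD-5001, against 11.00, 10.51, 10.34 and 10.71 on AIN-76A. Only replicate A of the AIN-76A mice reached the lowest LRD-5001 array. The difference was 0.44 (SE 0.10, limma adjusted p = 0.0148), and the call was lost without AIN-76A replicate B or C. A second probe set of Atp5a1 differed by 0.39 (adjusted p = 0.0685), and another, dim one by -0.06. Atp5pb read 10.43, 10.44, 10.61, 10.62 and 10.04 on LRD-5001, against 10.02, 10.12, 10.02 and 10.12 on AIN-76A, with replicate F of the LRD-5001 mice inside the AIN-76A range. It differed by 0.36 (SE 0.10, adjusted p = 0.0415), and that call was kept in 1 of 9 fits leaving 1 array out, the one without this replicate F. These were the 2 members called higher, when limma called 1.43% of all probe sets higher, and 0 were called lower. Among genes with a mean above 8, 11.5% were called higher. Next were Atp5g3 (0.23, adjusted p = 0.0673) and Ndufa9, a complex I subunit near the ubiquinone site (0.36, adjusted p = 0.0734). The groups did not overlap for these and for Cox8c, which was in the other direction (-0.38, adjusted p = 0.318), 3 of 81 members when 4.3% of all probe sets did not overlap. Without AIN-76A replicate A, 9 members were called, all higher on LRD-5001, when 2.4% of all probe sets were called higher: Ndufa9, Ndufs1, Ndufv1, Sdha, Sdhb, Uqcrc1, Uqcrc2, Atp5a1 and Atp5g3. The share of genes with a mean above 8 called in that fit was not computed. The diet difference of Atp5a1 at 100 ppb was not called different from that in controls (interaction 0.38, SE 0.14, adjusted p = 0.721).

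Some other genes of mitochondrial energy metabolism were also called between the diets. For all probe sets the shares called were 2.67% higher and 1.59% lower, and for genes with a mean above 8 they were 16.6% and 9.13%. The lists below mix genes above and below that mean, and whether their counts differ from these shares was not tested. Averaged over the levels, 9 of 43 factors that assemble the complexes were called higher on LRD-5001 and 0 lower (median difference 0.13). They included Coa6, needed for complex IV (0.30), and the complex I factors Ndufaf7 (0.41), Ndufaf1 (0.40) and Nubpl (0.44). Of 18 electron carriers and coenzyme Q genes, 4 were higher and 0 lower: ferredoxin Fdx1 (0.44), the electron transfer flavoprotein subunits Etfa (0.20) and Etfb (0.16), and cytochrome c1, Cyc1 (0.14). Cyc1 is itself a subunit of complex III and is not a member only because its symbol does not match the rule. Of 25 genes of the citric acid cycle and pyruvate dehydrogenase, 5 were higher and 2 lower. The NADP-linked isocitrate dehydrogenase Idh2 (0.73), the 2-oxoglutarate dehydrogenase subunit Dlst (0.29) and the pyruvate carrier Mpc1 (0.42) were higher, and fumarase Fh1 was lower (-0.35). Of 25 carriers and membrane proteins, 4 were higher and 0 lower, led by the aspartate-glutamate carrier Slc25a13 (0.44), the dicarboxylate carrier Slc25a10 (0.57) and the carnitine carrier Slc25a20 (0.36), with the cristae protein Immt (0.30). Of 23 regulators and mitochondrial DNA factors, 2 were higher and 0 lower, the coactivator Ppargc1b (0.71) and Polg2, an accessory subunit of the mitochondrial DNA polymerase (0.60).

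Markers of other cells moved with diet as well. Of 11 Kupffer cell markers, 4 were called lower on LRD-5001 and 0 higher: Clec4f (-0.40), Csf1r (-0.33), C1qa (-0.42) and Cd5l (-0.37). The summed linear signal of the 11 ran from 1703 to 3292 over LRD-5001 arrays, against 1927 to 3890 over AIN-76A arrays exposed for 5 weeks or not at all. Ighm, 1 of 5 B cell markers, was lower (-2.40), as were S100a8 (-1.25) and S100a9 (-1.30) among 6 neutrophil markers. Of 9 hepatocyte markers, 2 were lower, Fgb (-0.24) and Hnf4a (-0.25). Of the stellate cell, bile duct, endothelial, T and NK cell, red cell, muscle, fat and pancreas markers, 0 were called. The part of these cells in the differences of the subunits was not tested.

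No arsenite exposure called a member. In limma 0 of 81 members passed in any of the 6 exposures, and the same tool called 0.00888% of all probe sets at 100 ppb in water on AIN-76A and 0% in the other 5. At an unadjusted p under 0.05 the members numbered 10 at 100 ppb in water, 2 at 10 ppb in food and 1 at 10 ppb in water on AIN-76A, and 1, 2 and 0 on LRD-5001 in the same order. The shares of all probe sets at that p were 8.87%, 3.63% and 4.84% on AIN-76A and 2.34%, 2.29% and 2.34% on LRD-5001. The 95% interval of a member's difference was ± 0.24 (median) at 100 ppb in water on AIN-76A and ± 0.22 in the other 5 exposures. The 3 exposures of a diet share its control arrays.

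On AIN-76A at 100 ppb in water, 64 members had a difference below 0 and 17 above it. Their median was -0.09, against -0.06 for genes with a mean above 8 and 0.00 for all genes. The 10 members at an unadjusted p under 0.05 (12.3%, against 8.87% of all probe sets) all had differences below 0: Ndufa6, Ndufa9 and Ndufb5 of complex I, and Atp5a1, Atp5b, Atp5c1, Atp5g3, Atp5j, Atp5o and Atp5pb of ATP synthase. For genes with a mean above 8 the share at that p was not computed. Atp5pb read 10.02, 10.12, 10.02 and 10.12 in exposed mice, against 10.57, 10.26, 10.54, 10.36 and 10.28 in controls. No other member separated the groups completely, while 1.69% of all probe sets did. The difference was -0.33 (SE 0.10, limma adjusted p = 0.195). Atp5a1 read 11.00, 10.51, 10.34 and 10.71 in exposed mice, against 11.12, 10.76, 10.88, 10.88 and 11.21 in controls, a difference of -0.33 (SE 0.10, adjusted p = 0.254). Here replicate A of the exposed mice lay among the controls, and without it Atp5a1 was called (-0.45, adjusted p = 0.0141), when 0.664% of all probe sets were called lower. Atp5b, the catalytic beta subunit, read 11.20, 10.93, 10.92 and 10.96 in exposed mice, against 11.35, 10.94, 11.47, 11.37 and 11.40 in controls, a difference of -0.30 (SE 0.11, adjusted p = 0.378). All 4 members of complex II and all 8 of complex III had differences below 0, with medians of -0.25 and -0.10. The mean over all members was 9.10 ± 0.09 (SD, n = 4) in exposed mice and 9.19 ± 0.12 (SD, n = 5) in controls.

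**Figure D4:**
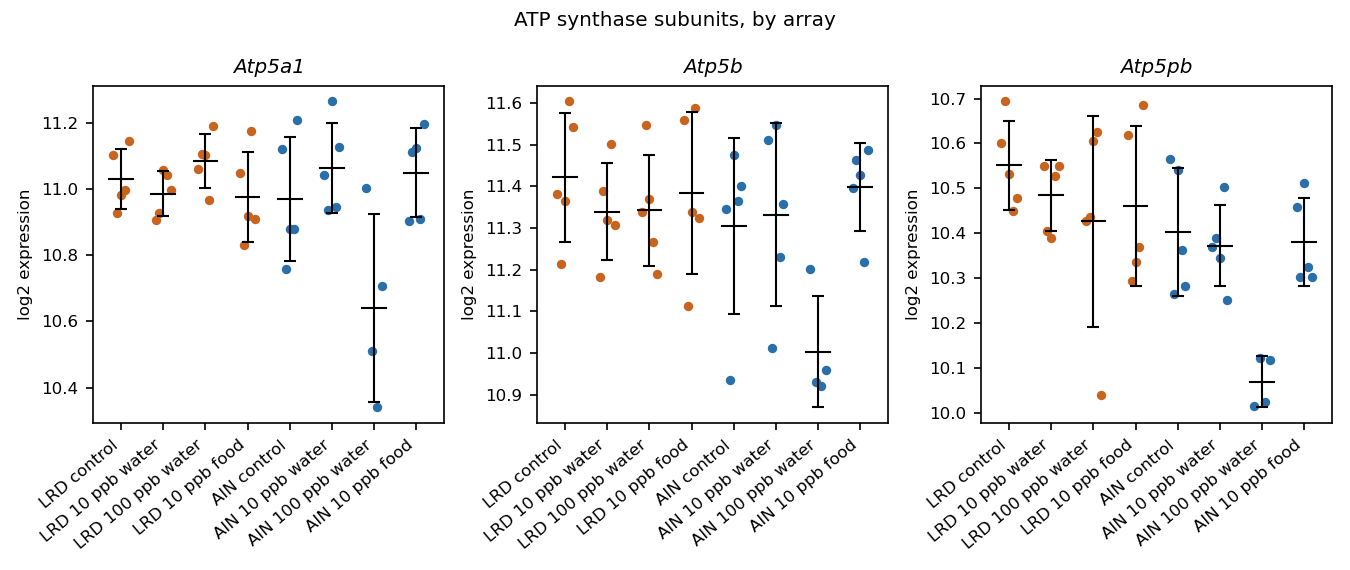
Log2 expression of the ATP synthase subunits Atp5a1, Atp5b and Atp5pb on each array of the 8 groups exposed for 5 weeks (points), with the group mean and SD (bars); the axes do not start at 0. The AIN-76A mice given 100 ppb in water have the lowest group mean of each gene, at 10.64, 11.00 and 10.07.

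The same dose on LRD-5001 gave 57 differences below 0 and 24 above it, with a median of -0.04, against 0.01 for genes with a mean above 8. There Atp5pb averaged 10.43 ± 0.24 in exposed mice and 10.55 ± 0.10 in controls, and Atp5a1 averaged 11.08 ± 0.08 in exposed mice and 11.03 ± 0.09 in controls (SD, n = 5 each). The interactions of diet with exposure called 0 members and 0% of all probe sets at each of the 3 exposures in limma, with 2 members at an unadjusted p under 0.05 at 10 ppb in water, 1 at 100 ppb in water and 1 at 10 ppb in food (4.14%, 6.12% and 2.5% of all probe sets). At 10 ppb in water the medians were 0.05 on AIN-76A and -0.03 on LRD-5001, and at 10 ppb in food they were 0.06 on AIN-76A (0.05 without replicate D) and -0.04 on LRD-5001. Ndufb1, an accessory complex I subunit with a dim probe set, had the smallest p on LRD-5001 at 100 ppb in water (-0.28) and at 10 ppb in food (-0.29). The 3 widest differences at 10 ppb in food on AIN-76A were those of the muscle forms Cox8b (1.28), Cox7a1 (0.96) and Cox6a2 (0.76), all with an adjusted p of 1.00. Without replicate D the differences of Cox8b and Cox7a1 were 0.13 and 0.16, and that of Cox6a2 turned to -0.18.

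Dexamethasone called no member either. In limma 0 of 81 passed 8 hours after dexamethasone alone, when 1.74% of all probe sets were called, and 0 passed after both agents, when 0.926% were called. Nor did any pass for dexamethasone on top of arsenite, when 0.881% of probe sets were called. Among the members, 57 differences were above 0 after dexamethasone (median 0.09), 67 after both agents (median 0.13) and 67 for dexamethasone on top of arsenite (median 0.10). The medians of genes with a mean above 8 were -0.040, -0.009 and -0.001 in the same order. Members varied together within groups, so these counts are not of independent genes. The first 2 of these comparisons share the saline arrays and the last 2 the arrays of both agents. At an unadjusted p under 0.05, 11 members were higher and 0 lower after dexamethasone (13.6%, against 11.2% of all probe sets). After both agents 14 were higher and 0 lower (17.3%, against 9.78%), and for dexamethasone on top of arsenite 8 were higher and 1 lower (11.1%, against 10.2%). Shares at that p among genes with a mean above 8 were not computed. The median 95% interval of a member's difference was ± 0.25.

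Ndufb3 had the smallest p of the members after both agents and after dexamethasone alone. It read 8.49, 8.92, 9.13, 8.73 and 9.02 after both agents and 8.71, 8.71, 8.61, 8.71 and 8.82 after dexamethasone, against 8.25, 8.79, 8.06, 8.50 and 7.92 after saline. The saline arrays were the more scattered, and their replicate B lay above 4 of the 5 dexamethasone arrays. The differences were 0.55 after both agents (SE 0.15, limma adjusted p = 0.109) and 0.41 after dexamethasone (SE 0.15, adjusted p = 0.26). Without saline replicate B the difference after both agents was called (0.67, adjusted p = 0.0275), when 0.495% of all probe sets were called higher. Ndufa12 and Ndufa5, accessory subunits of complex I, differed by 0.39 (adjusted p = 0.199) and 0.43 (adjusted p = 0.231) after both agents. Uqcrfs1, the Rieske iron-sulphur protein of complex III, differed by 0.30 (adjusted p = 0.261). After dexamethasone alone the next were Ndufb8 (0.34, adjusted p = 0.312) and Atp5md, a small membrane subunit of ATP synthase (0.18, adjusted p = 0.343). Cox7a1 differed by 0.74 after both agents (adjusted p = 0.435), with replicate E at 4.88 and the other 4 arrays between 2.34 and 3.63, against 2.39 to 2.84 after saline. Without replicate E its difference was 0.35.

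Injected arsenite called no member. In limma 0 of 81 were called, 0 had an unadjusted p under 0.05, and 0% of all probe sets were called, with a median difference of 0.03 and single differences from -0.19 (Sdhd, a membrane anchor of complex II) to 0.23 (Ndufb3). On top of dexamethasone it called 0 members and 0% of probe sets, with 1 member at an unadjusted p under 0.05, Uqcrh (0.33, adjusted p = 1.00), the hinge protein of complex III. The interaction of dexamethasone with arsenite called 0 members and 0% of probe sets, with 0 members at an unadjusted p under 0.05.

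Other mitochondrial genes were called after dexamethasone, and those named here were picked after their values were seen. After dexamethasone 1.74% of all probe sets were called in either direction. Of genes with a mean above 8, 3.31% were called higher and 5.97% lower. After both agents these shares were 0.926%, 2.16% and 3.81%. Of 25 genes of the citric acid cycle and pyruvate dehydrogenase, 5 were called higher and 0 lower: the pyruvate dehydrogenase subunits Pdhb (1.13), Pdhx (1.61) and Pdha1 (0.68), pyruvate carboxylase Pcx (1.03) and the isocitrate dehydrogenase subunit Idh3a (0.98). Of 43 assembly factors, 2 were higher and 0 lower, Coa6 (1.79, SE 0.17) and the complex I factor Ndufaf4 (1.05, SE 0.21). Of 25 carriers, 1 was higher, the ADP/ATP exchanger Slc25a5 (0.50, SE 0.10). After both agents Coa6 (1.72), Ndufaf4 (0.93), Slc25a5 (0.51) and Idh3a (1.05) were again called, together with the phosphate carrier Slc25a3 (0.43), the import receptor Tomm22 (0.49) and Tfb1m, which modifies mitochondrial ribosomal RNA (0.68). No cell type marker was called after dexamethasone; the 11 Kupffer cell markers had a median difference of -0.77, with a summed signal of 1204 to 1681 after dexamethasone and 1236 to 6322 after saline, and the 6 neutrophil markers a median of -0.91. Their part in the members' differences was not tested.

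**Figure D5:**
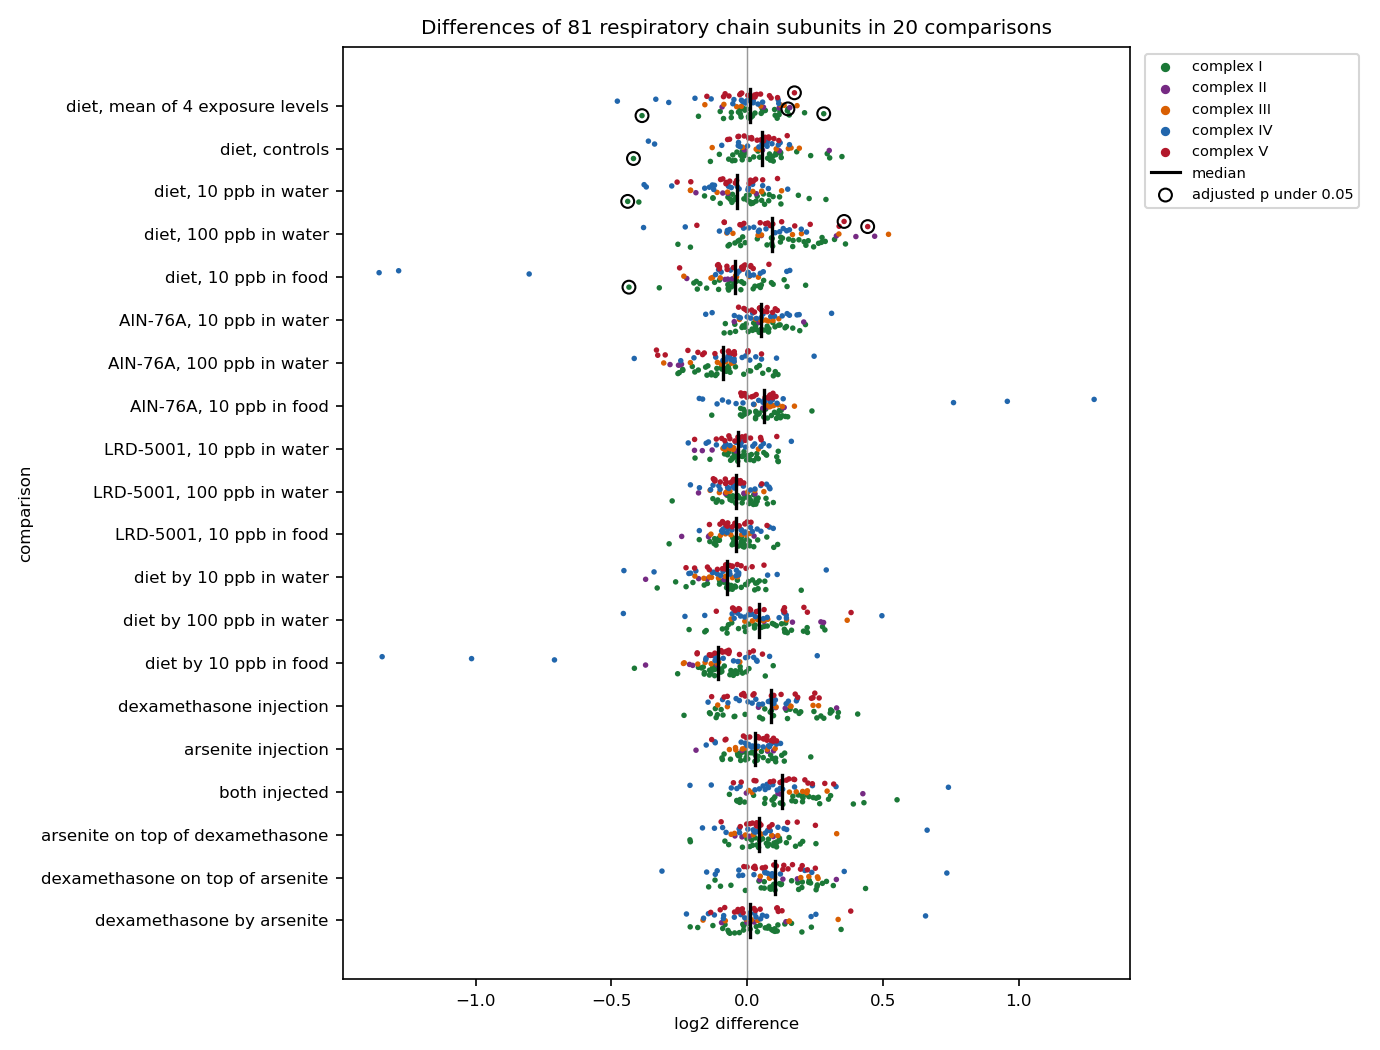
Log2 differences of the 81 members (points, coloured by complex) in the 20 comparisons (rows), with the median as a black line and a circle around each member called by limma. Circles appear only in the diet comparisons; the points farthest from 0 lie in the rows that use the AIN-76A food group and are the muscle forms Cox8b and Cox7a1, at up to 1.28 and down to -1.36.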

How the data were processed

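The authors deposited log2 expression values per probe set, processed with RMA per the submitters' processing notes; version and settings: not given in the sources used here. RMA draws dim probe sets together, so their differences can be understated. No scanner files were used and nothing was filtered or renormalized. Of 45101 probe sets, 64 controls were left out. Symbols came from the platform annotation, and all 81 members were found by gene identifier in the RefSeq table for GRCm38.p6. No pair of arrays was a duplicate (highest correlation 0.994). Linear models in limma 3.58.1 (R 4.3.3) took the 39 arrays of the 5-week experiment and the 20 of the 8-hour experiment apart, with p-values adjusted over 45037 probe sets (Benjamini-Hochberg, threshold 0.05). The fit was tested on simulated data. The named members are those called, at most 15 a direction, or the 3 of smallest p where fewer than 3 passed; for levels, the 5 brightest, the 5 dimmest and the complex IV isoforms. A few further differences (Ndufa6, Ndufa9, Cox8c, Cox6a2, Uqcrfs1 and Cox7a1) were named after their values were seen. Whether mice were handled separately is not stated, so p-values reflect the spread among these samples only; the array number limits precision. Members and lists were chosen with earlier results of these data known. Tables were handled with pandas 2.3.3 and figures drawn with matplotlib.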

Additional observations from a re-analysis of the deposited data

Results flagged for a closer look

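In groups of 4 or 5 arrays, an array was picked out where its gap to the nearest array took an unusually large share of the group's range (above 0.829 of it for 4 arrays and 0.71 for 5). This was looked for in 132 sets of values, the member mean and 10 members in 12 groups, and chance alone picks out about 1 set in 20. It was met 9 times. On the AIN-76A array given 10 ppb in food, replicate D, it was met by Cox6a2 (8.55), Cox7a1 (6.96) and Cox8b (8.42), with gaps of 0.924, 0.819 and 0.879 of the range, beside the muscle markers described above. Cox6a2 was also high on replicate E of the mice injected with both agents (4.37, gap 0.754). Atp5b was high on replicate A of the AIN-76A mice given 100 ppb in water (11.2, gap 0.868), the array whose removal brought 9 calls between the diets at that dose, and low on AIN-76A control replicate C (10.9, gap 0.759), which is the array of its group that stood apart. Ndufa6 was low on AIN-76A replicate B at 100 ppb in water (8.78, gap 0.873) and high on LRD-5001 replicate E at 10 ppb in food (9.43, gap 0.879). Ndufa8 was low on saline replicate C (9.95, gap 0.713). The cause of these single values was not tested.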

How the results depend on the processing

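The counts of members called, 4 for the diets averaged over exposures, 1 each for controls, 10 ppb in water and 10 ppb in food, 2 for 100 ppb in water and 0 elsewhere, were recomputed under 10 other settings and without each array in turn. With all 59 arrays in 1 fit the averaged diets gave 2 (Ndufa8 and Ndufb3), 100 ppb in water gave 1, controls, 10 ppb in water and 10 ppb in food gave 0, and both injected agents gave 2 (Ndufb3 and Ndufa12). With quantile normalization the averaged diets gave 2 (Ndufa8 and Ndufa6) and 100 ppb in water gave 1. With only the groups compared, the 4 single levels of diet gave 0. With a variance trend, 10 ppb in food gave 0. With the arrays that stood apart as a block, 100 ppb in water gave 4, and without them 3. With the replicate letter as a replicate block the averaged diets gave 3 and 100 ppb in water gave 1. Same-letter arrays of different groups had a median correlation of -0.035 and others -0.007, so no pairing by letter was seen. These medians cannot show whether arrays of a letter were handled together. Leaving out 1 array gave 3 to 5 calls for the averaged diets, 0 to 1 for controls, 10 ppb in water, 10 ppb in food, both agents and 100 ppb in water on AIN-76A, and 0 to 9 for the diets at 100 ppb in water. Ndufa8 was called for the averaged diets under all 10 settings, between -0.42 and -0.39. Of 1589 recomputed values of the named differences, 1499 kept direction and side of the threshold, 68 lost a call, 20 gained one and 2 changed sign. Both were of Cox6a2 at 10 ppb in food on AIN-76A (0.76), which ran from -0.1751 (without replicate D) to 1.0421 when 1 array was left out and was -0.0673 without the arrays that stood apart, replicate D among them. The cause of the lost calls was not tested. With 4 or 5 arrays a group, the smallest member difference called at a single diet level was 0.36 (Atp5pb at 100 ppb in water). A difference of 0.55 (Ndufb3 after both agents) was not called. Absent calls between single groups therefore do not exclude differences of this size. The diets averaged over exposures called differences down to 0.15 (Ndufv1). Dim probe sets carry no reading.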
